A study of Homo sapiens with 2 samples.

Results

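Cancer-testis antigen families were followed here in PLC8024 cells with and without an intact MAEL gene. The members were the protein-coding genes of the count table whose names begin with MAGE, GAGE, PAGE, XAGE, SSX, CTAG or SPANX, which gave 87 genes of the 58735 listed. The data hold 1 library labelled MAEL WT, from non-treated wild-type cells, and 1 library labelled MAEL KO, from cells in which MAEL was cut with an sgRNA. Both were made from total RNA of PLC8024, also named PLC/PRF/5 or Alexander cells, an established epithelial line from a human liver cancer. Per the study's methods, the knockout cells came from single clones grown after a Cas9 plasmid was transfected and mCherry-positive cells were sorted, so the MAEL KO library may stand for 1 clone, while no cloning step is given for the wild-type cells. With 1 library per condition, clone, culture and knockout cannot be told apart, no difference has a replicate check and no p-value is given.

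Cancer-testis antigens are proteins made in male germ cells and silent in most other normal tissues, but switched on in many tumors, where T cells can recognize their peptides. Most are encoded by multicopy families on the X chromosome, and DNA methylation of their promoters is the best known mechanism that keeps them off. MAGE proteins share a MAGE homology domain and bind RING-type ubiquitin ligases. The type I genes (MAGEA, MAGEB and MAGEC) are restricted to germ cells and tumors, whereas most type II genes (MAGED, MAGEE, MAGEF, MAGEH and MAGEL2) are expressed in many tissues. MAEL itself is a cancer-testis antigen and a factor of the germline piRNA pathway. Of the 87 members, 78 lay on the X chromosome.

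The libraries held 19904136 counts for MAEL WT and 20833332 for MAEL KO. MAEL had 1 count in MAEL WT and 0 in MAEL KO, neither of them above the detection floor of 3 counts. The labels could thus not be checked by the targeted transcript. The study chose PLC8024 as its line of highest MAEL expression and showed the knockout by Western blot, which measures protein and not RNA. At these depths 3 counts correspond to 0.151 and 0.144 CPM. Differences are log2 fold changes, MAEL KO over MAEL WT, of TMM-normalized counts to which 1 was added. They were taken for the 17887 genes that reached 10 counts in either library, here called tested. Fold values given as such are ratios of normalized counts with nothing added. For a gene with 0 counts in MAEL KO the fold is a bound that sets those counts to 3, and the interval beside it, which also covers the error of the MAEL WT count, allows a smaller change. Each 95% interval was derived from the Clopper-Pearson limits on how a gene's counts split between the libraries, and like the floor it covers counting error only. Since the RNA was extracted in bulk, fewer cells expressing a gene and less RNA per cell cannot be told apart. Levels are compared between genes by the deposited FPKM, which is per kilobase of gene length.

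Most members were silent or near silent. Of the 87 genes, 36 had at most 3 counts in both libraries, 11 reached 4 to 9 counts and 40 were tested. In all, 29 members had 0 counts in both. Of the 36 silent members, 10 shared over 90% of their 50-base transcript windows with another gene, among them GAGE12C, GAGE12D, SPANXA1, SPANXA2 and SSX4. Whether reads that match several genes were dropped is not given in the sources used here, so low counts of such copies do not show that they were silent. Among protein-coding genes in general 25.7% were at or under the floor in both libraries, against 41.4% of the members. The silent MAGE genes were MAGEB1, MAGEB3, MAGEB4, MAGEB5, MAGEB6B, MAGEB10 and MAGEB18 of type I, and MAGEE2 and MAGEL2 of type II. The other silent members were 8 of 13 GAGE genes, 9 of 10 SPANX genes, 5 of 8 SSX genes, 2 of 6 PAGE genes (PAGE3 and PAGE4), XAGE5, CTAGE1 and CTAGE9. The detected MAGE genes were 19 of 26 type I genes, taken here as the restricted class, and 7 of 9 type II genes, taken as the ubiquitous class.

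Fewer members were detected in MAEL KO. There were 48 members above 3 counts in MAEL WT and 38 in MAEL KO, of which 35 were above it in both. The 13 members above it in MAEL WT alone made up 25.5% of the 51 detected members. Beside this stand 11.8% of all detected genes, 6.26% of detected protein-coding genes and 10.2% of the detected protein-coding X-chromosome genes outside these families. The 3 members above it in MAEL KO alone were CTAG1A, CTAG1B and MAGEB6, with 4, 5 and 9 counts there. They made up 5.88%, near the 5.93% of all detected genes, beside 2.23% of detected protein-coding genes. These shares were not compared at like counts.

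**Figure D1:**
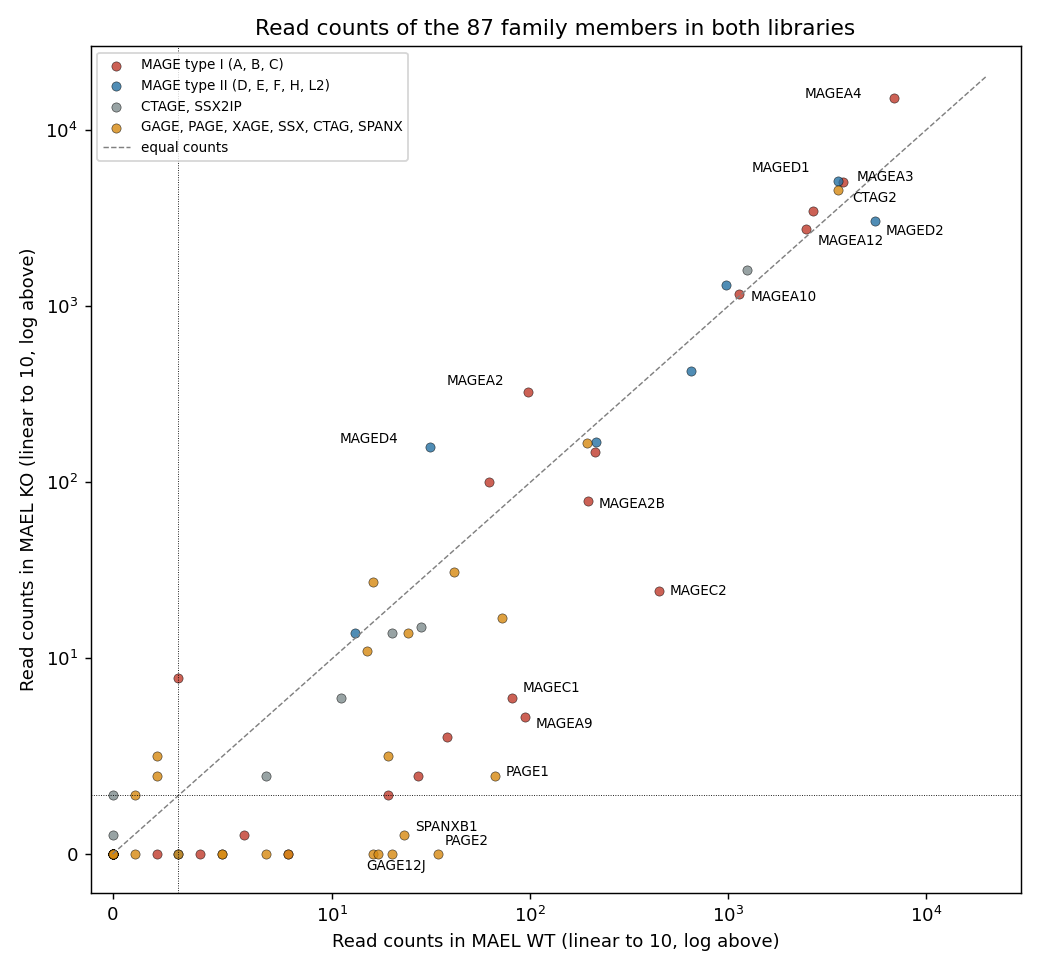
Read counts of each of the 87 members in MAEL WT (horizontal axis) and MAEL KO (vertical axis), 1 point per gene, colored by class, on axes that are linear up to 10 and logarithmic above. The dotted lines mark the floor of 3 counts and the dashed line equal counts. Members above 1000 counts lie near the dashed line, while a group with up to 448 counts in MAEL WT lies near the bottom.

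The upstream sequences of 5 members are shown, because these genes stand for the patterns described below. MAGEA4 and MAGEA3 were abundant in both libraries, and MAGEC2, PAGE1 and GAGE12J were far lower in MAEL KO. Each run is the 250 bases before the RefSeq start site in GRCh38.p14, 5′ to 3′ on the strand of the gene. Capitals mark matches, on either strand, to 3 motifs. These are CCGGAA, a form of the site for ETS factors, CACGTG, a form of the E-box, and GGCGGGA, a form of the E2F site. Other forms of these sites were neither marked nor counted. The runs lie at chrX:151912224-151912473 on the plus strand for MAGEA4, chrX:152698544-152698793 on the plus strand for MAGEA3, chrX:142205291-142205540 on the minus strand for MAGEC2, chrX:49695985-49696234 on the minus strand for PAGE1 and chrX:49321787-49322036 on the plus strand for GAGE12J.
MAGEA4: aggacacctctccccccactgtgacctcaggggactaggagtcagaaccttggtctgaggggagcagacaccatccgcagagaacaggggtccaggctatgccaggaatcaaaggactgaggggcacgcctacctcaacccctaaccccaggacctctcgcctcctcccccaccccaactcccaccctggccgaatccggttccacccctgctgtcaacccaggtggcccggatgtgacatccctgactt
MAGEA3: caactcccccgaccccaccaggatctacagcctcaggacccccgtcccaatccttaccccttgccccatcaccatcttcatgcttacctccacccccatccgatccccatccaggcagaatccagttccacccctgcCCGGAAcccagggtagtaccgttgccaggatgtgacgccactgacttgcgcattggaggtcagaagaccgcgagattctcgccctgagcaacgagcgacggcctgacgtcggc
MAGEC2: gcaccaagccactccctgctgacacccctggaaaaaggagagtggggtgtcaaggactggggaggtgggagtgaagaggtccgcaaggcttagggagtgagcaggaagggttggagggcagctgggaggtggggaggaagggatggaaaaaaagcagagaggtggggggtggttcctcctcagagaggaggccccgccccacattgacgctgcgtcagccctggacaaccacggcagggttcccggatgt
PAGE1: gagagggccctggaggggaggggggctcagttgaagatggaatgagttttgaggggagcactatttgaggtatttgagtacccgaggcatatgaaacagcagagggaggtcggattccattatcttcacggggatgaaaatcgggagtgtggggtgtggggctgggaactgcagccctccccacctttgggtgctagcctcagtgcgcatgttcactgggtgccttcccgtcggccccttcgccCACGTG
GAGE12J: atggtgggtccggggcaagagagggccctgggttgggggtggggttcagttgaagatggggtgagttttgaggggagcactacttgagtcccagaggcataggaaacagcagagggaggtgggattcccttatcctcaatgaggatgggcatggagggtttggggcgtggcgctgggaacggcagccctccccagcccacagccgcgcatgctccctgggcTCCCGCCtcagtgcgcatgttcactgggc

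Abundant MAGEA transcripts were kept or higher in MAEL KO. MAGEA4 (chrX:151912509-151925170), whose protein binds the ubiquitin ligase RAD18, had 6917 counts in MAEL WT and 15104 in MAEL KO, or 102.6 and 258.6 FPKM. The log2 fold change was 1.34 (95% interval 1.30 to 1.38), which is 2.53-fold. MAGEA3 (chrX:152698752-152702347), a partner of the ligase TRIM28 and a target of tumor vaccines, had 3784 and 5036 counts, at 0.62 on the log2 scale (95% interval 0.56 to 0.68). MAGEA4 became the most abundant member by FPKM in MAEL KO, ahead of CTAG2, whereas CTAG2 led in MAEL WT.

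The other abundant type I genes moved less. MAGEA6, the near copy of MAGEA3, had 2692 and 3467 counts, at 0.58 (95% interval 0.50 to 0.65). MAGEA12 had 2487 and 2758 counts, at 0.36 (95% interval 0.28 to 0.44). MAGEA10 had 1140 and 1171 counts and was at 0.25 (95% interval 0.13 to 0.37), which became -0.027 when libraries were scaled by total counts. That scaling lowers the median of all tested genes by 0.27, from -0.04 to -0.31, so that small increases shrink under it. MAGEA8, which was not among the abundant genes, went from 62 to 100 counts, at 0.89 (95% interval 0.43 to 1.38).

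Another part of the type I genes was far lower in MAEL KO. MAGEC2 (chrX:142202345-142205290), which binds TRIM28, fell from 448 to 24 counts, or from 10.29 to 0.636 FPKM. The log2 fold change was -3.96 (95% interval -4.67 to -3.42), which is 16.1-fold lower, and its rank by FPKM among the 40 tested members went from 11 to 23. MAGEC1 fell from 81 to 8 counts, at -2.99 (95% interval -4.39 to -2.08). MAGEC3, which missed the filter, had 8 counts and 0. All 3 MAGEC genes were thus lower in MAEL KO, and their summed counts went from 537 to 32.

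Within the MAGEA family the same direction was seen for 4 genes of lower abundance, among them the copies MAGEA9 and MAGEA9B. MAGEA9 fell from 94 to 7 counts, at -3.37 (95% interval -4.89 to -2.44). MAGEA1, the first MAGE antigen to be described, fell from 27 to 4 counts, at -2.30 (95% interval -4.52 to -1.02). MAGEA11 fell from 38 to 6 counts, at -2.29 (95% interval -3.99 to -1.20). MAGEA9B, a copy of MAGEA9, had 19 and 3 counts, a ratio of 5.47-fold lower with a 95% interval of -4.85 to -0.69 on the log2 scale. MAGEA2B also had fewer counts in MAEL KO, but its direction is uncertain, as described with its copy below.

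In all, 6 of 15 tested type I genes were below a log2 fold change of -2 and none was above 2, where 5.64% of all tested genes were below -2 and 2.16% above 2. Their median log2 fold change was -0.31, with 7 genes above 0 and 8 below, and the median of all tested genes was -0.04. The summed counts of the 26 type I genes went from 18316 to 28249, at 0.84 (95% interval 0.81 to 0.86), and MAGEA4 alone held 47.3% of them over both libraries. A gene passes the filter through either library, so a low gene that passed through MAEL WT alone had to be lower in MAEL KO, and these counts of genes are descriptions. Of the MAGEB genes, MAGEB2 was the 1 tested member, with 212 and 148 counts and a log2 fold change of -0.31 whose 95% interval of -0.62 to 0.00 reached 0. MAGEB16, MAGEB17 and MAGEB6 had at most 9 counts, and the intervals of all 3 included 0.

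**Figure D2:**
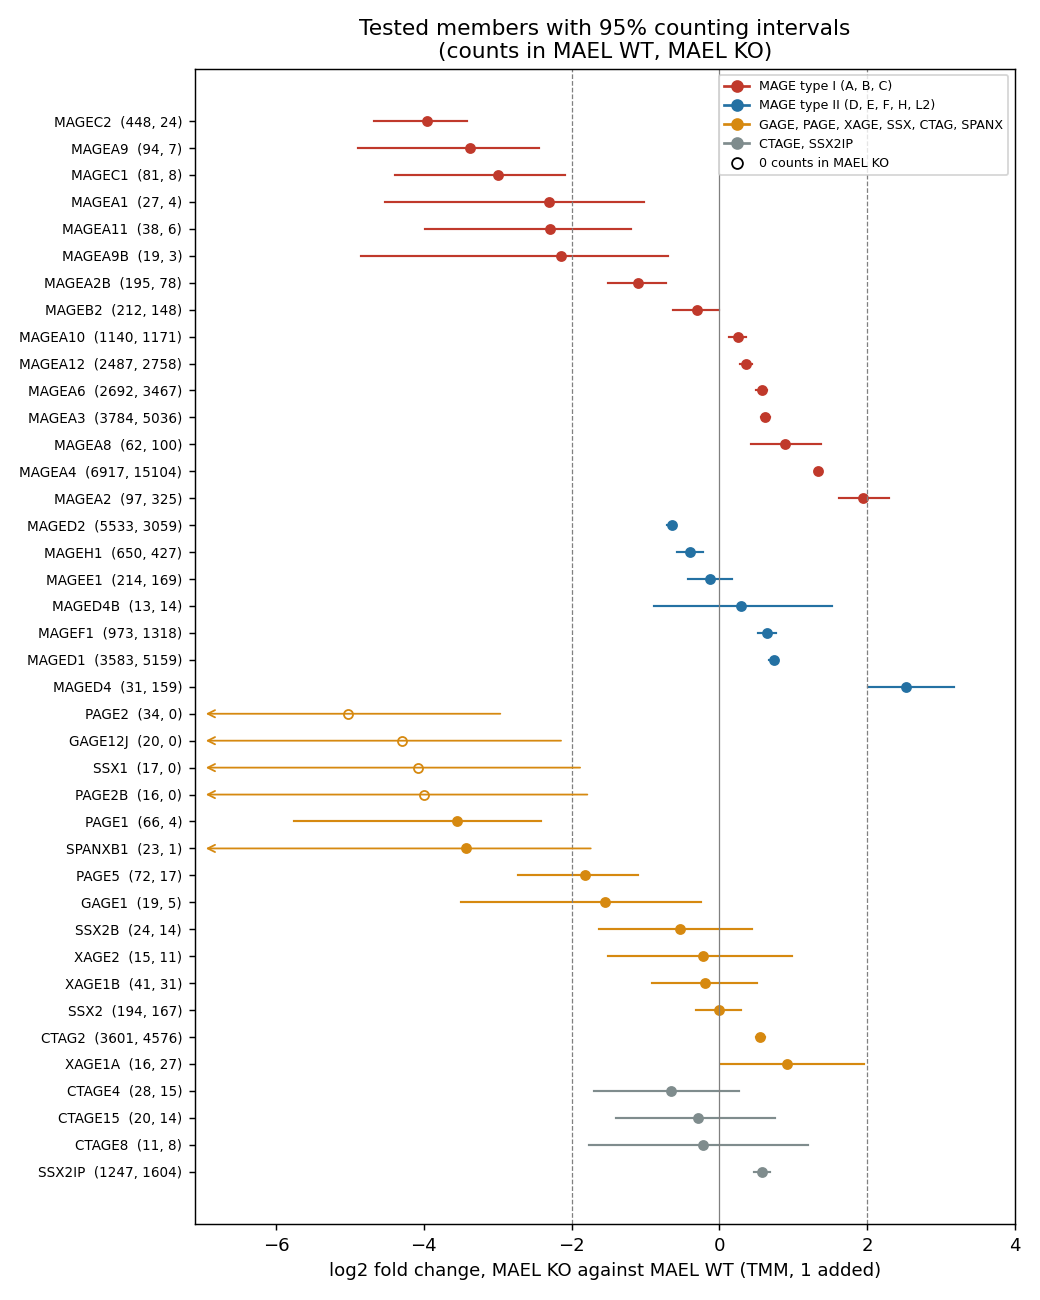
Log2 fold change, MAEL KO over MAEL WT, for the 40 tested members (points) with 95% counting intervals (lines), grouped and colored by class, with the counts of both libraries beside each name. Open points had 0 counts in MAEL KO, arrows run past the axis, and dashed lines mark -2 and 2. Type I genes run from -3.96 for MAGEC2 to 1.94 for MAGEA2.

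Several members are near-identical copies, whose reads the counting may have split or dropped. MAGEA2 went from 97 to 325 counts and MAGEA2B from 195 to 78, with log2 fold changes of 1.94 (95% interval 1.62 to 2.30) and -1.10 (95% interval -1.51 to -0.73). Of the 50-base windows in MAGEA2 transcripts of GENCODE 29, 96.4% also occurred in MAGEA2B transcripts. Summed, the pair went from 292 to 403 counts, at 0.67 (95% interval 0.45 to 0.90). The opposite directions of the copies are therefore uncertain, and the sum is the firmer value. MAGEA3 and MAGEA6, where 54.9% of MAGEA3 windows occurred in MAGEA6, summed to 6476 and 8503 counts, at 0.60 (95% interval 0.56 to 0.65). MAGEA9 and MAGEA9B, with 93.99% of MAGEA9 windows shared, summed to 113 and 10 counts, at -3.17 (95% interval -4.39 to -2.36). MAGEC2, MAGEA1, MAGEA8 and MAGEA11 shared under 1% of windows with any other gene.

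Some genes that lie close together on the X chromosome differed in direction and others did not. MAGEA8 and MAGEA9 lie between the same tested neighbors, TMEM185A and CXorf40B, and were at 0.89 and -3.37. Those neighbors were at -0.55 (95% interval -0.80 to -0.31) and -0.23 (95% interval -0.39 to -0.06). Further along the chromosome, 3 genes of the CSAG family, which are cancer-testis genes as well, start within 44 bases of a MAGEA gene and run in the other direction. CSAG1, which starts 44 bases from MAGEA12, went from 1419 to 890 counts, at -0.46 (95% interval -0.59 to -0.34), while MAGEA12 was at 0.36. CSAG2, which starts 37 bases from MAGEA2B, was at -0.55, and MAGEA2B was at -1.10. CSAG3, as far from MAGEA2, was at -0.84. The directions of both MAGEA2B and MAGEA2 are uncertain, as given above. MAGEA4 overlaps the antisense gene MAGEA4-AS1, which went from 881 to 348 counts, at -1.13 (95% interval -1.31 to -0.95). Whether the counting used strand is not given in the sources used here, so reads of the overlapping part cannot be assigned to either gene with certainty.

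The ubiquitous MAGE genes were detected in both libraries and mostly changed little. MAGED1 (chrX:51803007-51902357), an adaptor in neurotrophin receptor signaling, went from 3583 to 5159 counts, at 0.74 (95% interval 0.67 to 0.80). MAGED2 (chrX:54807599-54816012), which acts in salt handling by the fetal kidney, went from 5533 to 3059 counts, at -0.64 (95% interval -0.71 to -0.58). These 2 are the most counted type II genes, and they moved in opposite directions. The summed MAGED counts were 9160 and 8391, at 0.08 with TMM factors and at -0.19 with total counts, so that their direction depended on the scaling.

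MAGEF1, which controls iron-sulfur cluster assembly through the ligase NSMCE1, went from 973 to 1318 counts, at 0.65 (95% interval 0.53 to 0.77). MAGEH1 went from 650 to 427 counts, at -0.40 (95% interval -0.58 to -0.22). MAGEE1 had 214 and 169 counts, at -0.13, and its 95% interval of -0.43 to 0.17 included 0. MAGED4 was the 1 member above 2 in any class, with 31 and 159 counts, at 2.53 on the log2 scale (95% interval 2.01 to 3.17). Its copy MAGED4B had 13 and 14 counts, at 0.30 (95% interval -0.88 to 1.53). Since 99.01% of MAGED4 windows occurred in MAGED4B, the sum is the safer value, and it went from 44 to 173 counts, at 2.16 (95% interval 1.70 to 2.70). The 7 tested type II genes had a median of 0.30, with 1 above 2 and none below -2, beside 2.16% and 5.64% of all tested genes. This median is the value of MAGED4B, a copy whose single value is uncertain. With total counts the median was 0.04. Without members that have near-identical copies, an alternative chosen after seeing the data, the median was -0.13.

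**Figure D3:**
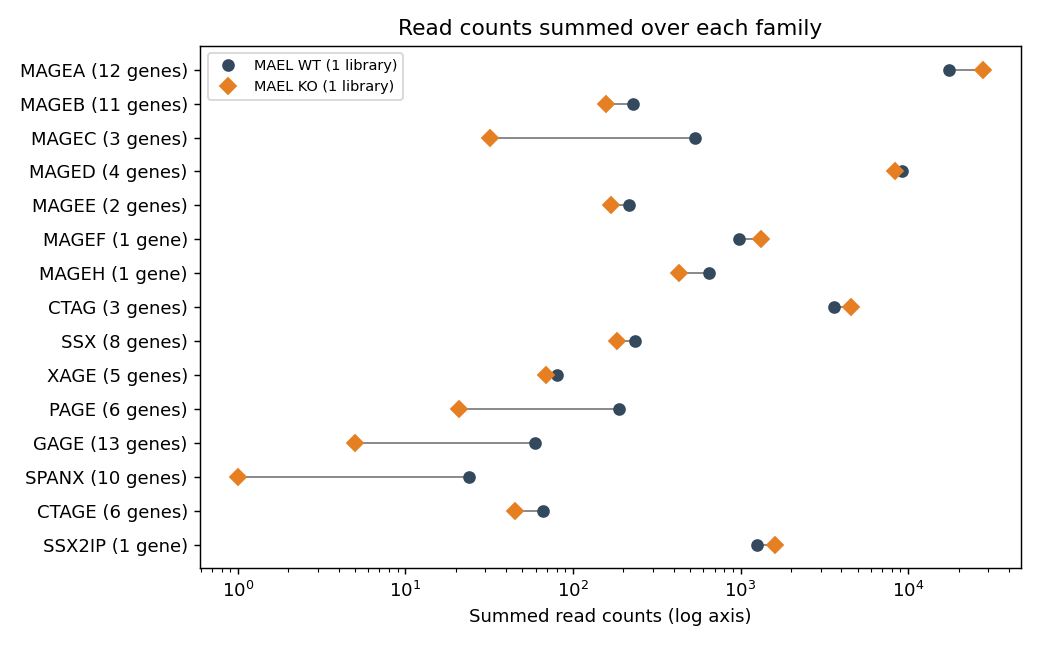
Read counts summed over the members of each family in MAEL WT (circles) and MAEL KO (diamonds), 1 library each, on a logarithmic axis, without MAGEL2, which had 0 counts. MAGEA sums went from 17552 to 28059, whereas the MAGEC, PAGE, GAGE and SPANX sums were far lower in MAEL KO.

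The GAGE and PAGE families are small acidic proteins of male germ cells encoded on the short arm of the X chromosome. Each detected member had fewer counts in MAEL KO. For the 4 GAGE and 2 PAGE genes above 3 counts in MAEL WT alone, this direction was fixed by the way they were detected. PAGE1, PAGE5 and GAGE1 were above 3 counts in both libraries. PAGE1 (chrX:49687450-49695993) fell from 66 to 4 counts, or from 4.54 to 0.317 FPKM, at -3.56 (95% interval -5.75 to -2.41). PAGE2 went from 34 counts to 0, at least 9.80-fold lower against the floor of 3 counts (upper limit of the interval -2.92 on the log2 scale). PAGE2B went from 16 counts to 0, at least 4.61-fold lower (upper limit -1.74), and PAGE5 from 72 to 17 counts, at -1.82 (95% interval -2.73 to -1.09). The summed PAGE counts fell from 188 to 21, 7.74-fold.

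Among GAGE genes the counts were low and the copies hard to separate. GAGE12J went from 20 counts to 0, at least 5.76-fold lower (upper limit -2.09), and GAGE1 from 19 to 5 counts, at -1.55 (95% interval -3.49 to -0.25). GAGE12E, GAGE13 and GAGE2A had 5, 7 and 8 counts in MAEL WT and 0 in MAEL KO, too few to pass the filter. Of GAGE12J windows, 89.8% occurred in transcripts of another gene, and GAGE1 overlaps GAGE2A on the same strand. The sum over the 13 GAGE genes does not depend on how reads were split between copies, but it lacks any reads that were dropped. This sum fell from 59 to 5 counts, 10.2-fold (95% interval -5.03 to -2.05 on the log2 scale).

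SPANXB1, of a family of sperm nuclear proteins, had 23 counts in MAEL WT and 1 in MAEL KO, a 19.9-fold ratio with a 95% interval of -9.68 to -1.69 on the log2 scale. The other 9 SPANX genes were silent. SSX genes encode repressors best known from the SS18-SSX fusions of synovial sarcoma. SSX1 went from 17 counts to 0, at least 4.90-fold lower (upper limit -1.83), while SSX2 had 194 and 167 counts, at -0.01 (95% interval -0.31 to 0.30). SSX2 and its copy SSX2B together had 218 and 181 counts, at -0.06 (95% interval -0.35 to 0.23). The interval for SSX2 thus leaves room for a change of up to 0.31 in either direction.

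XAGE genes were low and showed no clear difference as a family. XAGE1A and XAGE1B, with 100% of XAGE1A windows shared, summed to 57 and 58 counts, at 0.23 (95% interval -0.32 to 0.79). XAGE2 had 15 and 11 counts, at -0.22 (95% interval -1.50 to 0.98), and XAGE3 had 5 counts and 0. CTAG2 (chrX:154651972-154653579), also known as LAGE-1, was among the most abundant members, with 3601 and 4576 counts, or 165.8 and 243.1 FPKM. On the log2 scale it was at 0.56 (95% interval 0.49 to 0.62). CTAG1A and CTAG1B, the copies that encode NY-ESO-1, had together 4 and 9 counts, and the 95% interval of -0.46 to 3.53 included 0.

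Of the 14 tested members of the GAGE, PAGE, XAGE, SSX, CTAG and SPANX families, 6 were below -2 and none above 2, beside 5.64% and 2.16% of all tested genes. These 6 had 16 to 66 counts in MAEL WT and passed the filter through it alone, so they had to have fewer in MAEL KO. Of all tested genes with 10 to 99 counts, 12.4% were below -2. The median of the 14 was -1.68, with 2 above 0 and 12 below. It was 0.28 for the 2 of them with at least 100 counts, CTAG2 and SSX2.

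The name rule also took in genes that are not X-linked cancer-testis antigens of these families. SSX2IP on chromosome 1 encodes a centrosome and junction protein that binds SSX2, and it had 1247 and 1604 counts, at 0.57 (95% interval 0.47 to 0.68). The CTAGE genes lie on chromosomes 6, 7 and 18 and are relatives of MIA2, a gene of protein export. They summed to 66 and 45 counts, at -0.34 (95% interval -0.92 to 0.23). CTAGE4, CTAGE8 and CTAGE15 were tested, and the intervals of all 3 included 0.

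The members fell apart by abundance. The 10 tested members with at least 1000 counts in 1 library ranged within a log2 fold change of -0.64 to 1.34 and none was past 2 in either direction, where 1.52% of tested genes at that level were above 2 and 1.05% below -2. Of the 21 members with 10 to 99 counts at most, 11 were below -2 and none above 2, and the median of the 21 was -2.14. These 11 all passed the filter of 10 counts through MAEL WT alone, so they had to have fewer counts in MAEL KO. In that range of counts 12.4% of all tested genes were below -2 and 3.44% above 2, with a median of -0.42. Low counts thus went with more values below -2 among all tested genes too. MAGEC2 was the 1 member with at least 100 counts below -2, where 2.35% of all tested genes at that level were. MAGED4 was the 1 such member above 2, where 1.54% were. Over the tested protein-coding X-chromosome genes outside these families, 8.25% were below -2, 1.61% were above 2 and the median was -0.16.

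**Figure D4:**
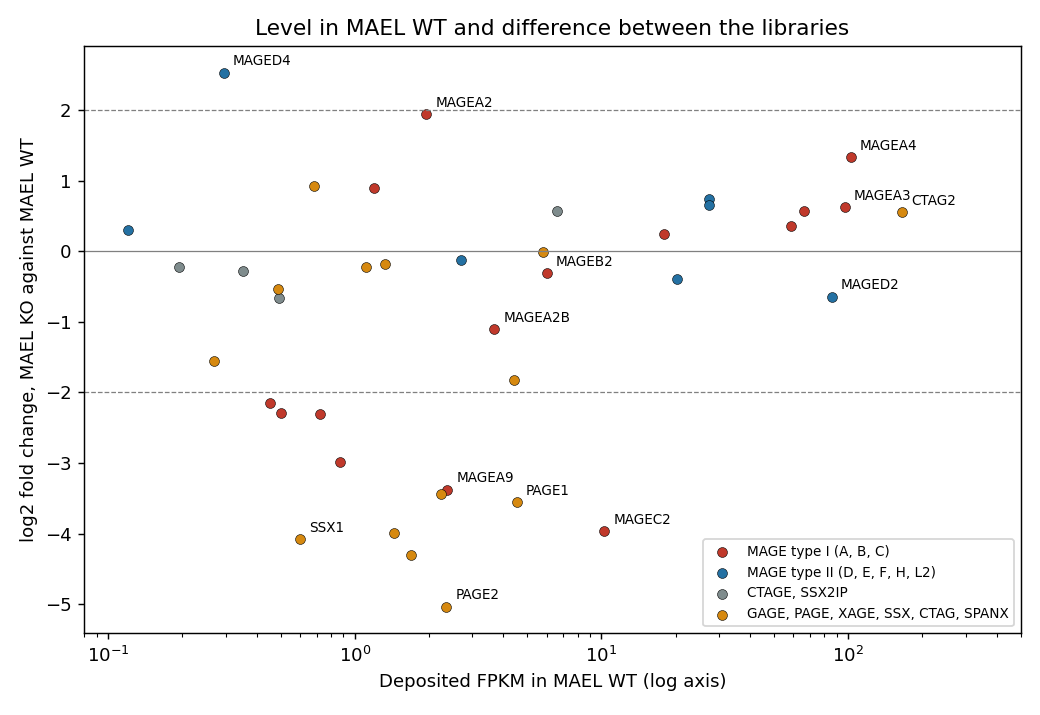
Deposited FPKM in MAEL WT (horizontal logarithmic axis) against the log2 fold change, MAEL KO over MAEL WT (vertical axis), for the 40 tested members, colored by class, with dashed lines at -2 and 2. Members above 15 FPKM lie between -0.64 and 1.34, and those below -2 have at most 10.29 FPKM in MAEL WT.

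Over the 71 genes of the type I MAGE and other cancer-testis families the reads were concentrated on few genes. MAGEA4, MAGEA3, CTAG2, MAGEA6, MAGEA12 and MAGEA10 held 91.6% of their 22508 counts in MAEL WT and 97.0% of their 33114 counts in MAEL KO. These 6 genes kept this order of counts in both libraries. At 1 FPKM or more there were 21 of the 71 genes in MAEL WT and 14 in MAEL KO.

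The promoter windows of the members, each from 250 bases before to 50 after the RefSeq start site, were described for the 76 members that could be matched. Not matched were CTAG1A, CTAG1B, CTAG2, GAGE12B, GAGE2E, MAGEA1, MAGEA10, MAGEB17, MAGEH1, SPANXN4 and SSX3. Silent type I and other cancer-testis members had a median of 6.5 CG dinucleotides per window (n = 28), whereas it was 12 in those below -2 (n = 11) and 13 in the other tested ones (n = 15). The median over all 35116 windows was 14. The ranges overlapped, since silent genes had 1 to 14 and genes below -2 had 5 to 21. The lowest number, 1, was found in MAGEB1, SPANXN2 and SPANXN5. Silent SPANX genes had 1 to 8, whereas silent GAGE genes had 11 to 13 and the silent MAGEB10 had 14.

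Motif content differed between the families. All 11 matched GAGE windows held both the E-box and the E2F motif spelled out above, which occurred on either strand in 7.26% and 15.4% of all windows. The GAGE windows are near copies of each other and not independent. In GAGE12J the capitals mark the E2F motif on the other strand, and the E-box lies in the 50 bases after the start. The E-box was also held by 4 of 6 PAGE windows, among them PAGE1, where it closes the printed run. Neither motif was found in any of the 23 matched type I MAGE windows. The ETS motif in the form CCGGAA occurred in 17.2% of all windows. Of the 15 windows of other tested cancer-testis members it was held by 2, the identical ones of MAGEA3 and MAGEA6. The window of MAGEB6, which missed the filter, held it too. None of the 11 windows of cancer-testis members below -2 did, which is too few windows to tell from the share of 17.2%. None of the 3 motifs contains another, and a match describes letters and not a bound site.

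**Figure D5:**
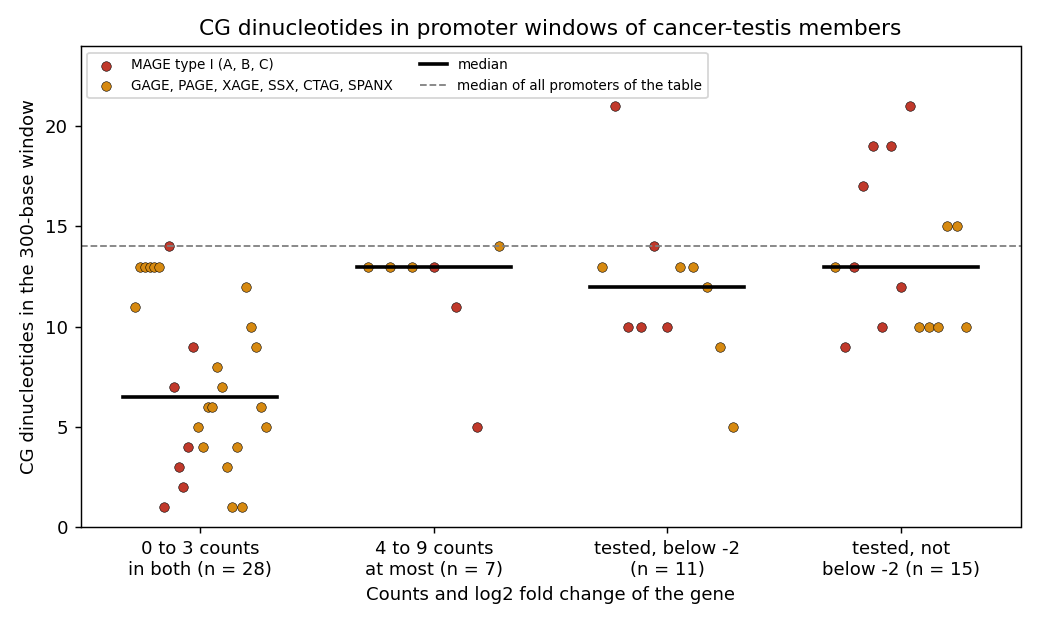
Number of CG dinucleotides in the 300-base promoter window of each matched type I MAGE and other cancer-testis member (points), by counts and log2 fold change of the gene, with the median of each set (solid line) and of all 35116 windows (dashed line). The silent set has a median of 6.5 and the others 12 to 13.

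Other cancer-testis genes outside these families were listed for comparison. Of 77 listed genes 34 were tested, 7 were below -2 and none above 2, beside 5.64% and 2.16% of all tested genes, and the median was -0.68. Those below -2 were PASD1, NXF2, CCDC62, ACRBP, CT55, AKAP3 and CT83, of which all but CT83 had at most 92 counts. These 6 passed the filter through MAEL WT alone, so they had to have fewer counts in MAEL KO. Of all tested genes with 10 to 99 counts, 12.4% were below -2. PASD1, an X-linked gene, had 92 counts and 1, at -5.38 (95% interval -11.63 to -3.80), and CT83 fell from 235 to 49 counts, at -2.03 (95% interval -2.53 to -1.60). PRAME on chromosome 22, a cofactor of a cullin ubiquitin ligase, went from 1495 to 798 counts, at -0.69 (95% interval -0.82 to -0.57). CT45A1, on the X chromosome, went from 498 to 681 counts, at 0.66 (95% interval 0.49 to 0.83). CT45A10, of the same family, went from 175 to 100 counts, at -0.59 (95% interval -0.97 to -0.23). The windows shared by CT45A genes were not measured, so their single directions are uncertain.

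The partner proteins of MAGE and SSX were expressed in both libraries. All 25 matched genes of that list were tested, none was above 2 and the median was -0.12. TRIM28, the ligase bound by MAGEA3 and MAGEC2, went from 6072 to 9574 counts, at 0.87 (95% interval 0.82 to 0.91). RAD18, bound by MAGEA4, went from 450 to 938 counts, at 1.27 (95% interval 1.11 to 1.43). NSMCE3, a MAGE gene of type II under another name that the rule did not take in, went from 981 to 522 counts, at -0.70 (95% interval -0.86 to -0.55).

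A list of regulators of germline genes mixed silencing factors with the demethylase genes TET1, TET2 and TET3 and with the factors SP1, ETS1 and ETS2, so its counts are not those of silencing factors alone. Of its 32 tested genes, 28 were above 0 and 4 below, with a median of 0.39, and values under 0.27 change sign with total counts. UHRF1 was the 1 gene above 2 and ETS1 the 1 below -2, where 2.16% and 5.64% of all tested genes were. UHRF1, which guides DNA methylation at replication forks, went from 486 to 1913 counts, at 2.19 (95% interval 2.04 to 2.33). The methyltransferase genes DNMT1 and DNMT3B went from 2018 to 4034 and from 683 to 1575 counts, at 1.21 and 1.41. E2F6, a repressor that binds GGCGGGA-like sites, had 984 and 838 counts, at -0.02 (95% interval -0.16 to 0.11). ETS1, an ETS factor, went from 21 counts to 0, at least 6.05-fold lower (upper limit -2.17). Whether any of these bears on the members was not tested.

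The liver identity of the cells could be checked by hepatocyte markers, all 16 of which were tested. The 5 above 2 were ALB, AFP, APOA1, TTR and AHSG, none was below -2 and the median was 1.16, where 2.16% of all tested genes were above 2 and 5.64% below -2. ALB had 59 and 8550 counts, and SERPINA1, at 1.79, had 78162 and 232891. Of 17 markers of fibroblasts, leukocytes, endothelium and germ cells, 9 were at or under 3 counts in both libraries, and the summed counts of the list were 681 and 594. None of its 6 tested genes was above 2, and COL1A1 fell from 92 to 11 counts, at -2.75. The germ cell markers DAZL, PRM1 and TNP1 were at 0 in both libraries, and DDX4 had 7 and 2 counts. The part of these differences in the values of the members was not tested.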

How the data were processed

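Total RNA of 1 MAEL WT and 1 MAEL KO sample was sequenced (Illumina HiSeq, per the study's methods). Gene-level read counts, not normalized, were deposited by the authors together with FPKM values. These FPKM values could be rebuilt from the counts, the gene lengths in the table and library sizes of 1.10 and 0.91 times the totals. The submitters' processing notes name HISAT2 2.0.5, featureCounts 1.5.0-p3 and the build hg19, whereas the coordinates of all 87 members equal those of GENCODE 29 on GRCh38, and these are printed. How reads matching several genes were counted is not given in the sources used here. TMM factors came from edgeR 4.0.16 and alternative size factors from DESeq2 1.42.0, both run in R 4.3.3. All further values were obtained with pandas 2.3.3, SciPy 1.17.1 and NumPy 2.4.6 under Python 3.11.15, and matplotlib 3.10.9 drew the plots. Genes were called past a log2 fold change of 2, the size the study used. A gene with 0 counts in 1 library is given as a bound against 3 counts. No test was run, since 1 library per condition leaves no replicate error. The steps were tested on simulated data.

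Copies were described by the share of all 50-base windows in a gene's GENCODE 29 transcripts that occur, on either strand, in transcripts of another gene. Promoter windows came from RefSeq on GRCh38.p14, matched by symbol within 10000 bases of the gene, taking the start nearest to its 5′ end. All tested members are named, with members at the edges of classes and, of other lists, up to 5 genes past the threshold in each direction and up to 5 others. The CSAG and overlapping noncoding genes were added after their values were seen. The members and lists were chosen with earlier results of these data known. Alternatives were other scalings, added counts, filters, thresholds and floors. Results of some genes of the other lists are not reported here.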

Additional observations from a re-analysis of the deposited data

How the results depend on the processing

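The count of 12 members below -2 was 1 among members with at least 100 counts and stayed within 1.5 times under the other alternatives. The count of 1 above 2 was 2 with no count filter, 3 at a threshold of 1 and 0 without members that share over 50% of their windows with another gene, an alternative chosen after seeing the data. With at least 100 counts the median of all tested members went from -0.30 to 0.56. That of the GAGE, PAGE, XAGE, SSX, CTAG and SPANX members turned from -1.68 to 0.28. This filter leaves out the members with 10 to 99 counts, whose median was -2.14. With total counts the summed fold changes were 0.28 for CTAG, 0.61 for MAGEA, 0.37 for MAGEF1, -0.67 for MAGEH1, 0.30 for SSX2IP and, reversed, -0.19 for MAGED, each lower by construction of that scaling. Without its most counted member the sum was at -5.26 for GAGE, 0.50 for MAGEA, -3.12 for MAGEC, -4.36 for PAGE, -1.05 for SSX and, reversed, -0.58 for MAGED. CTAG without CTAG2 was not run, having under 10 counts. Of 200 values of the 40 tested genes, 188 stayed within their interval and 11 moved, 10 with total counts and PAGE2 with 5 added, at -2.88. MAGEA10 reversed to -0.027 with total counts. Floors of 0 or 9 counts left 29 or 47 members silent. No paired analysis was possible because each condition has 1 library, and leaving out a library was not possible for the same reason. At these depths a level of 0 allows up to 0.151 or 0.144 CPM.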

Other observations

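The names of these families also take in 24 rows that are not protein-coding genes, of which 14 had 0 counts in both libraries and 3 were tested. MAGEA10-MAGEA5, a readthrough transcript that overlaps MAGEA10 on the same strand, went from 40 to 9 counts, at a log2 fold change of -1.84 (95% interval -3.17 to -0.88), while MAGEA10 itself was at 0.25. The pseudogene CTAGE3P on chromosome 13 went from 6 to 18 counts, at 1.63 (95% interval 0.40 to 3.42). MAGEA4-AS1, described with MAGEA4 above, was the most counted of these rows. MAGEA5, listed as a transcribed pseudogene, had 7 counts and 0, too few to be tested.

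The tested neighbors of the MAGEC genes lay far off and had fewer counts in MAEL KO as well. LDOC1, 661191 bases before MAGEC3, went from 714 to 305 counts, at -1.01 (95% interval -1.21 to -0.82). SLITRK4, 1417500 bases after MAGEC2, had 49 and 3 counts, at -3.46 (95% interval -6.15 to -2.19).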
